A study of Homo sapiens with 12 samples.

Results

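The 10 genes described here encode subunits of Polycomb repressive complex 2 (PRC2): the core subunits EED, EZH1, EZH2, SUZ12, RBBP4 and RBBP7 and the accessory subunits JARID2, AEBP2, MTF2 and PHF19. They were chosen by name, as the transcript clusters (the probe sets of this array type) annotated with 1 of these symbols. Each gene had exactly 1 such cluster, and all 10 were tested among 18417 genes, with no filter on dim signals. The cells were NCCIT, a human embryonal carcinoma line, and 12 arrays were read, 2 for each of 6 conditions. Of the 5 knockdown conditions, siEED+RNF2 cells received the EED and RNF2 siRNA pools together, siEED and siRNF2 cells received 1 of these pools each, and siWDR5 and siSETD2 cells received pools against WDR5, a scaffold of the H3K4 methyltransferases, and SETD2, which places the H3K36 trimethyl mark. The control, siNTC, received a non-targeting siRNA, and its arrays are labelled as a re-analysis. Knockdown was transient, each gene was targeted by a mixture of siRNAs, and the cells with the combined transfection took up both pools, a difference in dose that no other condition shares.

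PRC2 places methyl groups on histone H3 at H3K27, and the trimethylated form marks silent developmental genes in pluripotent cells. EZH2 or its paralog EZH1 carries the catalytic SET domain, EED reads trimethylated H3K27 and activates the enzyme, and SUZ12 holds the complex together. RBBP4 and RBBP7 are histone-binding WD40 proteins that PRC2 shares with the NuRD, SIN3 and CAF-1 complexes. Accessory subunits sort PRC2 into alternative forms: MTF2 and PHF19 are Polycomb-like proteins that bind unmethylated CpG DNA and join one form, while AEBP2 and JARID2 join the other. RNF2 is the ubiquitin ligase of the partner complex PRC1.

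Promoter sequence is shown for EED, SUZ12 and MTF2, which were lower in the dual knockdown than in each single one, and motif matches for any member that held one, because E2F factors are known activators of PRC2 core genes and CpG-rich DNA recruits PRC2 itself. AEBP2, lower in the same way, is shown by its motif match alone. RefSeq windows (GRCh38.p14) of 300 bases, 250 before and 50 after the annotated start, were found for 10 of 10 members, 15 windows in all. The forms TTTGGCGC, TTTCCCGC, TTTCGCGC and TTTGCCGC of the E2F motif were searched on both strands. The 250 bases before the start follow for EED (chr11:86244503-86244752, plus strand), SUZ12 (chr17:31936757-31937006, plus strand) and MTF2 (chr1:93079033-93079282, plus strand), with a motif form in capitals.
EED: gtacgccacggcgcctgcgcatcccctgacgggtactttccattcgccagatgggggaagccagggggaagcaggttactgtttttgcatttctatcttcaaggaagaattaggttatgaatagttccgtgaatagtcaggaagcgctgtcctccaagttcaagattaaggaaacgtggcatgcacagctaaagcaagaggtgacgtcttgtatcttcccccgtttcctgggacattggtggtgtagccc
SUZ12: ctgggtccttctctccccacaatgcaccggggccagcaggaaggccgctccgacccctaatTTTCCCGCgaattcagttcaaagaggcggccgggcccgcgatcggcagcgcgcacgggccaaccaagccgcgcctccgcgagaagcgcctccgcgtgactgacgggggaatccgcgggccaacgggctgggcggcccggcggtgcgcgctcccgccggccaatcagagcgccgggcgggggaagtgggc
MTF2: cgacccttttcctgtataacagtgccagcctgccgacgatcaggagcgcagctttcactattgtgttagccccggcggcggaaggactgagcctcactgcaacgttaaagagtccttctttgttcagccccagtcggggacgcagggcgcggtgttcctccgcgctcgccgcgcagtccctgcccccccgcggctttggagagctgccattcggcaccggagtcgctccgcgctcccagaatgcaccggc

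A motif form lay in 6 of the 15 windows, each in a different gene, against 3.31% of all 35116 windows. Among the 16675 windows with at least 16 CpG dinucleotides, the lowest number in a member window, the share was 5.66%. The SUZ12 match (capitals above) began 189 bases before the start. The other 5 matches are shown with 10 bases on each side and the match in capitals, written in the direction of the gene, so that a match to the opposite strand reads as the reverse complement. They lie at chr12:19440439-19440466 (AEBP2), chr1:93079278-93079305 (MTF2), chr7:148884273-148884300 (EZH2), chr17:42745138-42745165 (EZH1) and chr9:120877323-120877350 (PHF19).
AEBP2: aaggcgacgtTTTGCCGCgatccccctg
MTF2: ccggcagtccGCGGGAAAccaaaatggc
EZH2: ggctgccgcgTTTGGCGCtcggtccggt
EZH1: cggggttttgGCGGCAAAtgacagtagt
PHF19: tcaataattcGCGGGAAAacgcgaaaaa

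Of the 4 genes lower in the dual knockdown than in each single one (EED, SUZ12, AEBP2 and MTF2), SUZ12, AEBP2 and MTF2 held a form and EED did not. Of the 6 that were not, EZH1, EZH2 and PHF19 held one. The windows with the AEBP2 and PHF19 matches belong to annotated starts inside the span of the gene. The MTF2 and EZH2 matches begin after the start. A match is a description of letters and no measurement of binding. The member windows held 16 (EED) to 54 (RBBP7) CpG dinucleotides, with a median of 40, against a median of 14 over all windows.

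The deposited signals are log2 values, from 3.18 to 15.0 over all clusters. Replicate arrays correlated at 0.998 to 0.999 across the genes, while arrays of different conditions reached 0.996 at most. Pluripotency markers were bright, from 10.9 (SALL4) to 12.7 (SOX2) for the 9 of 12 measured, against a median of 6.90 over all genes. Medians of the endoderm, mesoderm, neural, trophoblast and blood marker lists were 4.25 to 6.15, and TFAP2A (11.9), MAP2 (8.06) and NES (7.23) were the markers in them above the median over all genes. The sources used here leave unsaid whether the replicates came from separate cultures. The p-values therefore reflect array-to-array spread, which may be technical, and with 2 arrays for each condition precision is limited. WDR5 fell in siWDR5 cells (log2 difference from siNTC -1.21, standard error 0.07, adjusted p = 4.3e-07) and SETD2 fell in siSETD2 cells (-1.75, standard error 0.06, adjusted p = 1.1e-08). The RNF2 transcript was not analysed here, so siRNF2 has no check of its target, and in siEED+RNF2 only the EED part has one.

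The PRC2 subunits that changed by at least 1.5-fold were counted beside the share of all genes that did. All differences come from 1 limma fit over the 12 arrays, and a call required a change of at least 1.5-fold and a Benjamini-Hochberg adjusted p below 0.05. In siEED+RNF2 cells 2 of 10 members were called against siNTC, EED and SUZ12, both lower, where 11.5% of all genes were called in either direction. EED was the 1 member called in siEED, against 6.37% of all genes, and the 1 member called in siRNF2, against 10.2%. In siWDR5 and siSETD2 the count was 0 of 10 with limma, against 6.02% and 5.82% of all genes, while 4 and 5 members differed at an unadjusted p under 0.05 whatever the fold. Compared with the single knockdowns, siEED+RNF2 had 1 member called against siEED (SUZ12, lower), where 2.91% of genes were called, and 2 against siRNF2 (EED and SUZ12, lower), where 3.27% were called. The EED calls in siEED and siEED+RNF2 are those of the siRNA target itself, and SUZ12 was the only other member called in them. The median over the 10 members was -0.17 in siEED+RNF2, against -0.02 over all genes, and lay within 0.01 to -0.11 in the 4 other knockdowns. Without EED, the siRNA target, the middle member in siEED+RNF2 is RBBP4, at -0.05.

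Smaller changes were counted at the adjusted p alone, with lower and higher members apart. In siEED+RNF2, 5 members were lower than siNTC (21.5% of all genes) and 1 was higher (20.6%). In siEED 2 were lower (18.9%) and 1 higher (16.5%), in siRNF2 2 were lower (22.1%) and 1 higher (20.9%), in siWDR5 3 were lower (18.6%) and 1 higher (15.2%), and in siSETD2 3 were lower (15.8%) and 2 higher (15.8%). Of these counts, the one furthest above its background was that of siEED+RNF2, with 5 of 10 lower, EED among them. EED was the siRNA target in siEED+RNF2 and siEED, so its fall there came with the treatment and is no result about the other members. In siEED+RNF2, 4 members were lower than in siEED (8.71% of all genes) and 4 were lower than in siRNF2 (11.3%), the same genes in both: EED, SUZ12, AEBP2 and MTF2. None was higher than in siEED (5.02% of all genes) or siRNF2 (6.03%) with limma, and at an unadjusted p under 0.05 1 and 0 were. All of these comparisons with siNTC share its 2 arrays, and those of the dual knockdown share its own 2 arrays. The scaling between arrays matters for small differences: the median signal of the arrays over the genes was above siNTC by 0.13 in siRNF2, 0.08 in siEED and 0.08 in siEED+RNF2. The median of the gene differences from siNTC was not raised, at -0.04, -0.03 and -0.02. With arrays centred on their median signal, 7 members were lower in siRNF2 at the adjusted p alone, among them MTF2, AEBP2, JARID2, RBBP4 and SUZ12, where 42.5% of all genes were lower, and 1 was higher, where 14.5% were. Centring moved the median gene difference in siRNF2 to -0.17. Of the 29 member differences past the adjusted p, none changed its sign under centring or quantile normalization, while 5 of the 70 member differences in all did, each of them short of it as deposited.

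**Figure D1:**
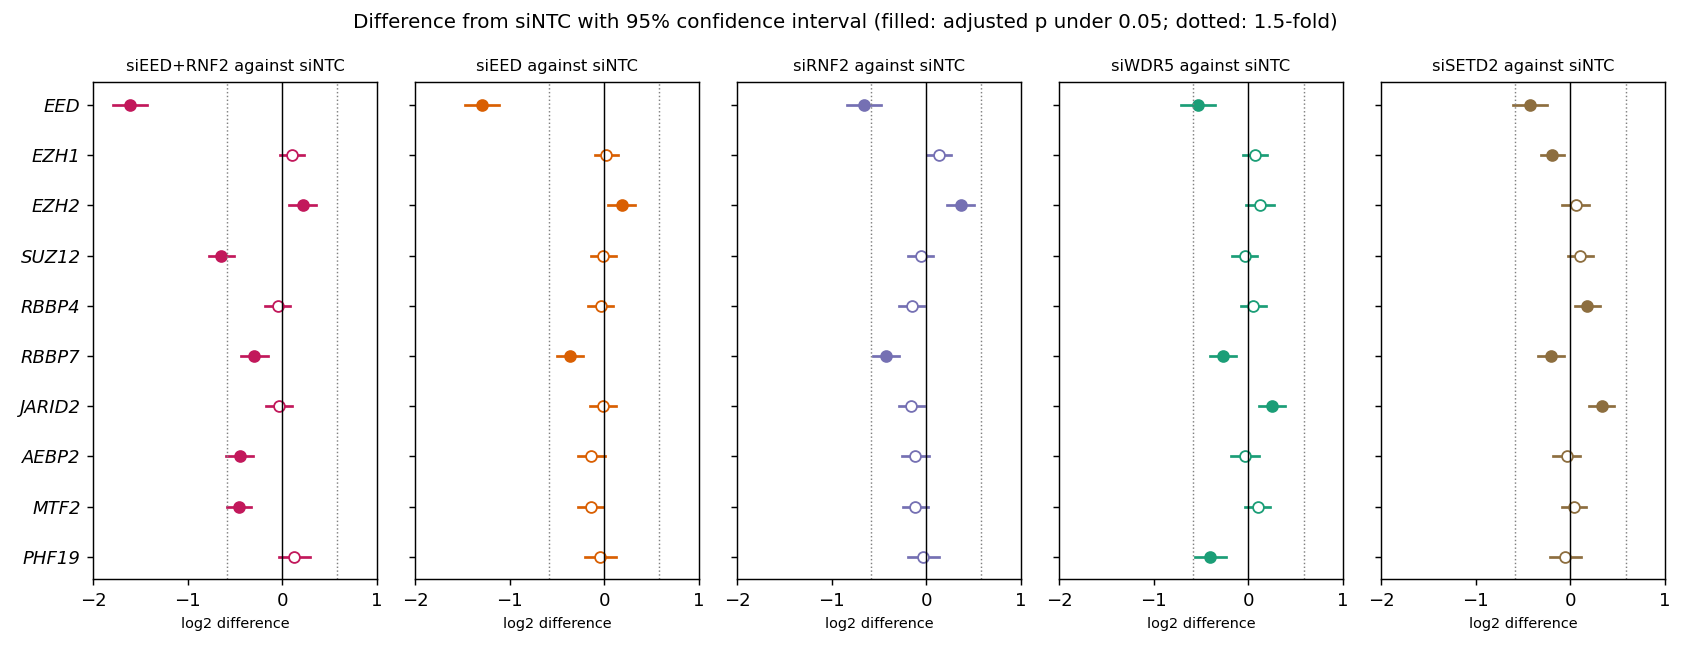
Log2 difference from siNTC (horizontal axis) of each PRC2 subunit (rows) in each of the 5 knockdowns (panels), with 95% confidence intervals from limma that are not adjusted for the number of genes. Filled points passed an adjusted p under 0.05 and dotted lines mark a 1.5-fold change. EED lies left of 0 in every panel, and SUZ12, AEBP2 and MTF2 do so with filled points in siEED+RNF2 alone (-0.65, -0.45 and -0.46).

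EED, on chromosome 11 (chr11:86244753-86287615, GRCh38.p14, transcript cluster 7942914), was lowest where its own siRNA was used, and lower than siNTC in all 5 knockdowns. Its log2 signals were 7.93 and 7.82 in siEED+RNF2, 8.25 and 8.14 in siEED, 8.85 and 8.80 in siRNF2, 8.86 and 9.05 in siWDR5, 9.11 and 9.02 in siSETD2, and 9.55 and 9.43 in siNTC. Neighbours in this order did not overlap, apart from siWDR5 and siSETD2. The signal left was 32.7% of siNTC in siEED+RNF2 (log2 difference -1.61, standard error 0.08, adjusted p = 5.3e-08) and 40.8% in siEED (-1.29, standard error 0.08, adjusted p = 6.4e-07). In bulk RNA, fewer cells expressing a gene and less RNA per cell cannot be told apart.

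The dual knockdown left less EED than siEED alone, by a log2 difference of -0.32 (95% interval -0.50 to -0.14, adjusted p = 0.024), short of 1.5-fold. It no longer passed the adjusted p without siEED replicate 1 (-0.26, adjusted p = 0.17) or siEED+RNF2 replicate 2 (-0.26, adjusted p = 0.16), without variance moderation (adjusted p = 0.070) or with every transcript cluster tested (adjusted p = 0.061). Against siRNF2 it was -0.95 (standard error 0.08, adjusted p = 1.6e-05). EED siRNA was absent from siRNF2, siWDR5 and siSETD2 cells, and EED there was nonetheless below siNTC, with differences of -0.66 (adjusted p = 5.4e-05), -0.54 (adjusted p = 0.00041) and -0.42 (adjusted p = 0.0022). Without siWDR5 replicate 2 (-0.63) or siNTC replicate 2 (-0.60) the decrease in siWDR5 reached 1.5-fold. Leaving out siWDR5 replicate 1 (8.86, the lower of its pair) or siNTC replicate 1 (9.55, the higher) makes it smaller instead. With the mean of siWDR5 and siSETD2 in place of siNTC, a reference chosen after the data were seen, EED in siRNF2 differed by -0.18 (adjusted p = 0.067) and was not called, while in siEED it was still called (-0.81, adjusted p = 9.4e-06). With 1 control condition, a high EED signal in siNTC and a decrease in each knockdown cannot be told apart.

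SUZ12, the scaffold subunit (chr17:31937007-32001038, GRCh38.p14, transcript cluster 8006325), was lower in siEED+RNF2 cells and close to siNTC in every other condition. Its log2 signals were 10.52 and 10.59 in siEED+RNF2, 11.22 and 11.17 in siEED, 11.17 and 11.11 in siRNF2, 11.14 and 11.19 in siWDR5, 11.33 and 11.29 in siSETD2, and 11.18 and 11.22 in siNTC. Both siEED+RNF2 arrays lay below all 10 others, while siRNF2, siWDR5, siEED and siNTC overlapped their neighbours. The log2 difference of siEED+RNF2 was -0.65 from siNTC (standard error 0.06, adjusted p = 5.1e-06), which leaves 63.9% of the signal. It was -0.64 from siEED (adjusted p = 2.7e-05) and -0.59 from siRNF2 (adjusted p = 4.8e-05). The single knockdowns differed from siNTC by -0.01 in siEED (95% interval -0.14 to 0.12, adjusted p = 0.92) and -0.06 in siRNF2 (95% interval -0.19 to 0.07, adjusted p = 0.47), with signs that turned under quantile normalization (0.06 and 0.01), and with centred arrays that in siRNF2 passed the adjusted p (-0.19, adjusted p = 0.025). The median difference over all genes in siRNF2 was -0.17 with centred arrays.

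The SUZ12 difference sits near the 1.5-fold line, a log2 difference of 0.585. It fell short of it against siNTC with quantile normalization (-0.58), and against siRNF2 with centred arrays (-0.54), without siRNF2 replicate 1 (-0.56) or without siEED+RNF2 replicate 1 (-0.55), and its adjusted p stayed under 0.05 in each of these settings. RefSeq names 2 pseudogenes after SUZ12, and sequence shared with them may hybridize to the same probes. SUZ12P1, which has a cluster of its own, read 9.71 and 9.70 on the siEED+RNF2 arrays, with 9.62 and 9.57 on the siNTC arrays, a log2 difference of 0.10 (adjusted p = 0.35).

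**Figure D2:**
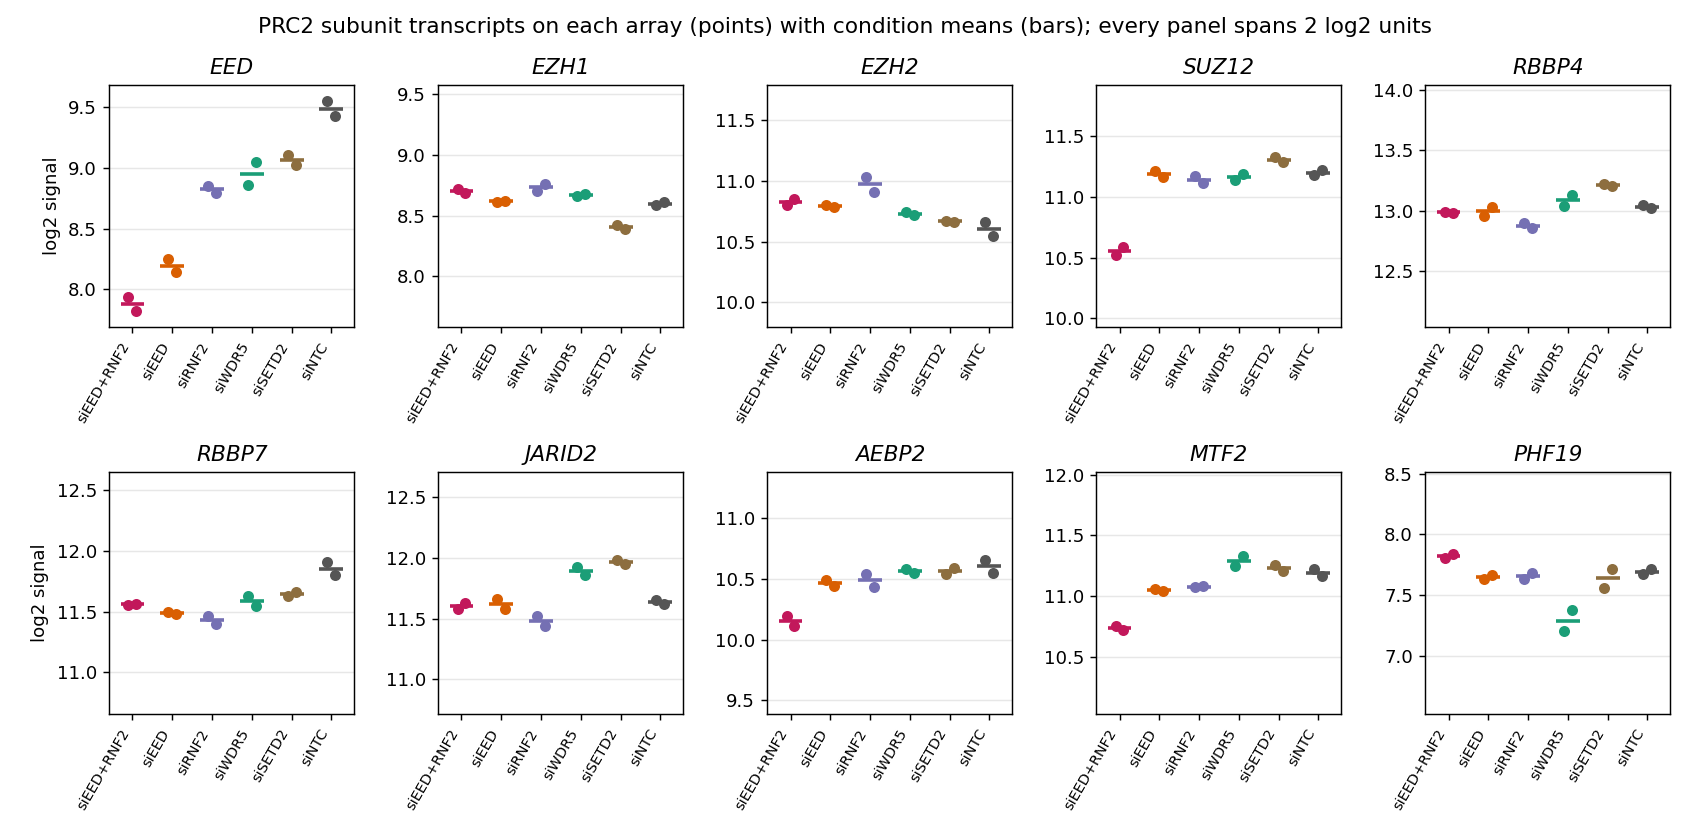
Log2 signal (vertical axis) of each PRC2 subunit on each array (points), by condition (horizontal axis), with bars at the condition means. Every panel spans 2 log2 units with its own offset, so distances can be compared between panels and levels cannot. The siEED+RNF2 arrays are the lowest for EED, SUZ12, AEBP2 and MTF2.

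The catalytic subunits moved less, and EZH2 moved upward. EZH2, the main methyltransferase of proliferating cells, had log2 signals of 10.80 and 10.85 in siEED+RNF2, 10.80 and 10.78 in siEED, 11.03 and 10.91 in siRNF2, 10.74 and 10.72 in siWDR5, 10.67 and 10.66 in siSETD2, and 10.66 and 10.55 in siNTC. The siRNF2 arrays were the highest and did not overlap the others. EZH2 was above siNTC in siRNF2 by 0.36 (standard error 0.07, adjusted p = 0.00087), in siEED+RNF2 by 0.22 (adjusted p = 0.019) and in siEED by 0.19 (adjusted p = 0.046). The increase in siEED, short of 1.5-fold like the others, no longer passed the adjusted p in 14 of the 23 settings tried, among them centred arrays (0.11, adjusted p = 0.21), and that in siEED+RNF2 did not pass with centred arrays either (0.14, adjusted p = 0.11). The dual knockdown differed from siEED by 0.03 (95% interval -0.11 to 0.18) and from siRNF2 by -0.15 (adjusted p = 0.16). EZH1, the paralog with weaker methyltransferase activity, was 8.42 and 8.39 in siSETD2 against 8.58 and 8.61 in siNTC, a difference of -0.19 (adjusted p = 0.024) that missed the adjusted p when any 1 of these 4 arrays was left out. In the other knockdowns EZH1 differed from siNTC by 0.02 to 0.14, with adjusted p from 0.074 to 0.80.

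RBBP7, one of the histone-binding subunits, was lower than siNTC in all 5 knockdowns, each time by less than 1.5-fold. Its log2 signals were 11.56 and 11.56 in siEED+RNF2, 11.50 and 11.48 in siEED, 11.46 and 11.40 in siRNF2, 11.63 and 11.54 in siWDR5, 11.63 and 11.66 in siSETD2, and 11.91 and 11.80 in siNTC. Both siNTC arrays lay above the 10 knockdown arrays. The differences were -0.29 in siEED+RNF2 (adjusted p = 0.0026), -0.36 in siEED (adjusted p = 0.00091), -0.42 in siRNF2 (adjusted p = 0.00021), -0.27 in siWDR5 (adjusted p = 0.0061) and -0.21 in siSETD2 (adjusted p = 0.025). As all 5 rest on the same siNTC arrays, they are not independent. The adjusted p was missed in siWDR5 without siWDR5 replicate 2 or siNTC replicate 1 (adjusted p = 0.051 and 0.057), and in siSETD2 without either siSETD2 array or siNTC replicate 1 (adjusted p from 0.066 to 0.17). RBBP7 was also set against a mean of other knockdowns in place of siNTC, leaving out any that received the same siRNA pool. For siEED+RNF2 that mean held siWDR5 and siSETD2 only, and for siEED and siRNF2 it left out siEED+RNF2. A decrease shared by all 5 knockdowns would cancel against this reference. With 1 control condition, such a decrease and a high RBBP7 signal in siNTC cannot be told apart. Against this reference RBBP7 did not pass in any knockdown. It differed by -0.05 in siEED+RNF2 (adjusted p = 0.50), -0.06 in siEED (adjusted p = 0.51) and -0.14 in siRNF2 (adjusted p = 0.056). In siWDR5 it differed by 0.05 (adjusted p = 0.50) and in siSETD2 by 0.13 (adjusted p = 0.058). RBBP4, its paralog, was 13.22 and 13.21 in siSETD2 against 13.05 and 13.02 in siNTC, a difference of 0.18 (adjusted p = 0.038) that missed the adjusted p when any 1 of these 4 arrays was left out. In the other knockdowns RBBP4 differed from siNTC by -0.16 to 0.05. RefSeq names 7 pseudogenes after RBBP4 and 1 after EED, and shared sequence may hybridize here too, which was not tested.

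MTF2 and AEBP2, which belong to alternative forms of PRC2, were both lower in the dual knockdown. MTF2 (chr1:93079283-93139076, GRCh38.p14) had log2 signals of 10.75 and 10.72 in siEED+RNF2, 11.06 and 11.04 in siEED, 11.07 and 11.08 in siRNF2, 11.25 and 11.33 in siWDR5, 11.25 and 11.21 in siSETD2, and 11.22 and 11.16 in siNTC. AEBP2 (chr12:19404072-19522227, GRCh38.p14) had 10.19 and 10.11 in siEED+RNF2, 10.49 and 10.45 in siEED, 10.55 and 10.44 in siRNF2, 10.58 and 10.55 in siWDR5, 10.54 and 10.59 in siSETD2, and 10.66 and 10.55 in siNTC. For each gene, both siEED+RNF2 arrays lay below the 10 others. MTF2 differed from siNTC by -0.46 (standard error 0.06, adjusted p = 6.7e-05), from siEED by -0.31 (adjusted p = 0.0043) and from siRNF2 by -0.34 (adjusted p = 0.0018). AEBP2 differed from siNTC by -0.45 (standard error 0.07, adjusted p = 0.00018), from siEED by -0.32 (adjusted p = 0.0083) and from siRNF2 by -0.34 (adjusted p = 0.0042). The AEBP2 difference from siEED missed the adjusted p without siEED replicate 1 or siEED+RNF2 replicate 2 (adjusted p = 0.071 in each), and that from siRNF2 without siRNF2 replicate 1 (adjusted p = 0.052). In siEED and siRNF2 both genes lay 0.11 to 0.14 below siNTC, which did not pass the test as deposited, and passed it with centred arrays (MTF2 -0.22 and -0.24, AEBP2 -0.22 and -0.24). With that centring the median difference over all genes in siRNF2 was -0.17.

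As deposited, the other accessory subunits passed the adjusted p against siNTC in siWDR5 or siSETD2 alone. PHF19, the second Polycomb-like member, was 7.20 and 7.38 in siWDR5 against 7.67 and 7.71 in siNTC, a difference of -0.40 (standard error 0.07, adjusted p = 0.0014). Both siWDR5 arrays were the lowest of the 12. JARID2, which helps bring PRC2 to its targets, was 11.92 and 11.86 in siWDR5 and 11.99 and 11.95 in siSETD2, against 11.65 and 11.62 in siNTC. Its differences were 0.25 in siWDR5 (adjusted p = 0.0080) and 0.33 in siSETD2 (adjusted p = 0.0017), and the first missed the adjusted p without siWDR5 replicate 1 (adjusted p = 0.055). In siEED+RNF2, siEED and siRNF2, PHF19 differed from siNTC by -0.04 to 0.13 and JARID2 by -0.16 to -0.01, none past the adjusted p as deposited. With centred arrays JARID2 passed it in siRNF2 (-0.28, adjusted p = 0.003), where the median difference over all genes was -0.17. Compared with siEED and siRNF2, siEED+RNF2 was 0.17 and 0.16 higher for PHF19 (adjusted p = 0.17 in each).

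**Figure D3:**
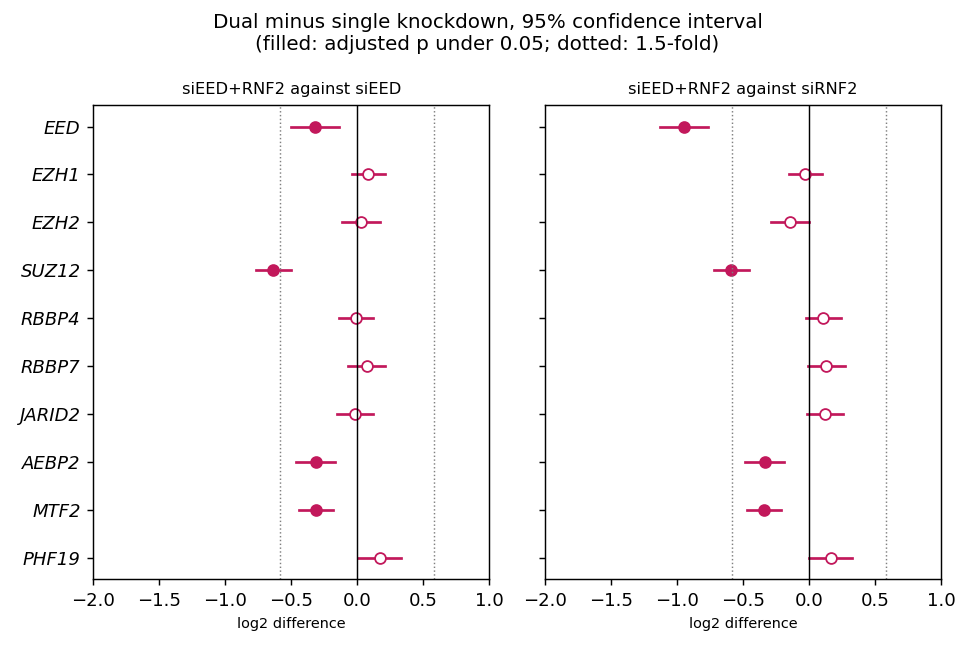
Log2 difference (horizontal axis) of siEED+RNF2 from siEED (left) and from siRNF2 (right) for each PRC2 subunit, with unadjusted 95% confidence intervals from limma. Filled points passed an adjusted p under 0.05 and dotted lines mark a 1.5-fold change. EED, SUZ12, AEBP2 and MTF2 lie below 0 in both panels, and SUZ12 lies at -0.64 and -0.59.

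Whether the dual knockdown equals the sum of the single ones was tested as an interaction (the siEED+RNF2 difference from siNTC, less the siEED and the siRNF2 differences). At the adjusted p alone, 2 members had a negative interaction, where 16.0% of all genes did, and 2 had a positive one, where 14.5% did. None reached 1.5-fold as well with limma, where 11.3% of all genes did, and 5 members passed an unadjusted p under 0.05. SUZ12 lay below the sum (-0.58, 95% interval -0.77 to -0.39, adjusted p = 0.00042): the single knockdowns added up to -0.07 and the dual knockdown gave -0.65. EZH2 was also below the sum (-0.33, adjusted p = 0.018), with 0.22 in the dual knockdown against a sum of 0.55. RBBP7 was above it (0.49, adjusted p = 0.0014), at -0.29 against -0.79, and so was EED (0.34, adjusted p = 0.043), at -1.61 against -1.95. For MTF2 and AEBP2 the interaction was -0.20 in each (adjusted p = 0.097 and 0.13), short of the test as deposited, and with quantile normalization that of MTF2 passed (-0.27, adjusted p = 0.025). Centred arrays gave 1 negative interaction among the members (SUZ12), where 11.6% of all genes had one, and 5 positive ones (EED, RBBP4, RBBP7, JARID2 and PHF19), where 28.9% did. The median interaction over all genes was 0.04 as deposited and 0.17 with centred arrays. The siNTC signal enters the interaction with a positive sign, and RBBP7 and EED had their highest signal in siNTC and EZH2 its lowest. The EZH2 interaction missed the adjusted p with centred arrays (-0.20, adjusted p = 0.10) and without siNTC replicate 2 (-0.28, adjusted p = 0.066), and that of EED without siNTC replicate 1 (0.28, adjusted p = 0.14).

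**Figure D4:**
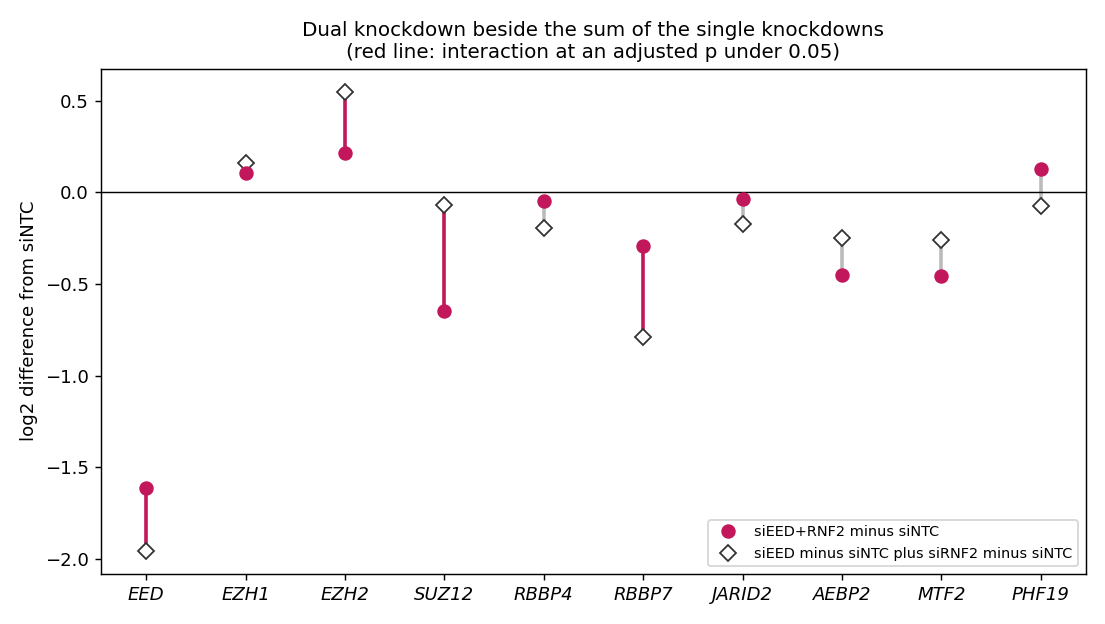
Log2 difference from siNTC (vertical axis) of each PRC2 subunit in siEED+RNF2 (filled circles) and the sum of its differences in siEED and siRNF2 (open diamonds), with a red line where the interaction passed an adjusted p under 0.05 and a grey line elsewhere. SUZ12 lies at -0.65 against a sum of -0.07, and RBBP7 at -0.29 against -0.79.

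Members spanned 26022 bases (RBBP7) to 275974 bases (JARID2) in the genome. The 4 members lower in the dual knockdown than in each single one spanned 42863 (EED), 64032 (SUZ12), 118156 (AEBP2) and 59794 (MTF2) bases. JARID2, the longest, differed from siEED by -0.02 and from siRNF2 by 0.12 in the dual knockdown. Over the 12 arrays, the genes whose log2 signal was most like that of SUZ12 were CHD1 (Pearson's r 0.985), a chromatin remodeler, SMC3 (0.984), a cohesin subunit, and PCM1 (0.984), a centriolar satellite protein. Their differences of siEED+RNF2 from siEED were -1.15 for CHD1, -1.18 for SMC3 and -0.98 for PCM1, each larger in size than that of SUZ12. For EED the most alike were SHOC2 (0.961), GNAQ (0.959), a G protein subunit, and NAA50 (0.954), an acetyltransferase subunit. These correlations describe 12 arrays in 6 conditions, whose replicates share a condition.

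Among 8 other partners and antagonists of PRC2, all measured, 4 were higher and 2 lower than siNTC in siEED+RNF2 at the adjusted p alone, against 20.6% and 21.5% of all genes. Called at 1.5-fold were EPOP, an accessory subunit of the Polycomb-like form (0.88, standard error 0.10, adjusted p = 2.6e-05), KDM6B, an H3K27 demethylase (0.71, adjusted p = 4.4e-05), and LCORL, whose locus also encodes a PRC2 accessory protein (-0.81, adjusted p = 3.2e-06). EPOP was called in siEED (0.63) and siRNF2 (0.80) as well, and KDM6B in siRNF2 (0.83). LCORL was lower in the dual knockdown than in siEED by -0.75 (adjusted p = 2.7e-05) and than in siRNF2 by -0.49 (adjusted p = 0.00054), and it was above siNTC in siSETD2 (0.41). The median of the 8 was 0.16 in siEED+RNF2, where that of all genes was -0.02. That of the 10 subunits was -0.17, with EED, the siRNA target, among them.

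Of 19 measured partners of RBBP4 and RBBP7 in NuRD, SIN3 and CAF-1, 4 were higher and 6 lower than siNTC in siEED+RNF2 at the adjusted p alone, against 20.6% and 21.5% of all genes, with a median of 0.00. CHD3, a NuRD remodeling ATPase, rose in siEED+RNF2 (1.13, adjusted p = 1.7e-07), siEED (0.84) and siRNF2 (0.94). ARID4B, a SIN3 subunit, was lower in siEED+RNF2 than in siNTC (-0.96, adjusted p = 7.5e-07), than in siEED (-0.87) and, short of 1.5-fold, than in siRNF2 (-0.58). Of 24 measured E2F targets, 6 were higher and 6 lower than siNTC in siEED+RNF2 at the adjusted p alone, against 20.6% and 21.5% of all genes. In siEED+RNF2, 4 were higher and 1 lower than in siEED, against 5.02% and 8.71%, and 9 were higher and 0 lower than in siRNF2, against 6.03% and 11.3%. GINS2, a replication helicase subunit, was called higher in siEED+RNF2 (0.79), siEED (0.68), siRNF2 (0.62) and siSETD2 (0.66). CCNE2, a cyclin E gene, was called lower in siEED+RNF2 (-0.94), siRNF2 (-0.68) and siWDR5 (-1.16). The median of the E2F targets in the dual knockdown was 0.11 against siEED and 0.18 against siRNF2. That of the subunits, EED included, was -0.01 and -0.09, and that of all genes 0.03 and 0.02.

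Markers of cell identity were read beside these results. Of the 9 pluripotency markers, 5 were lower and 1 was higher than siNTC in siEED+RNF2 at the adjusted p alone (21.5% and 20.6% of all genes), with a median of -0.23. In siEED 5 were lower (18.9%) and 0 higher (16.5%), in siRNF2 5 were lower (22.1%) and 1 higher (20.9%), with a median of -0.28, in siWDR5 3 were lower (18.6%) and 2 higher (15.2%), and in siSETD2 0 were lower (15.8%) and 4 higher (15.8%). DNMT3B, a de novo DNA methyltransferase, was called lower in siEED+RNF2 (-0.62) and siRNF2 (-0.71), GDF3, a growth factor of pluripotent cells, in siRNF2 (-0.59), and LIN28A, an RNA-binding protein, in siWDR5 (-0.68), while L1TD1 (0.67) and DPPA4 (0.59) were called higher in siSETD2. L1TD1, a pluripotency-associated RNA-binding protein, had signals in siEED+RNF2 that differed by -1.08 from siNTC, -0.68 from siEED (adjusted p = 3.3e-05) and -0.80 from siRNF2 (adjusted p = 1.3e-05), all called, the comparisons in which SUZ12 was called too. Among 28 measured markers of other cell types, the calls were all lower, MAP2 in all 5 knockdowns and TFAP2A in siWDR5 and siSETD2. At the adjusted p alone, 2 of the 7 endoderm markers were higher in siWDR5 and 1 in each other knockdown, while 1 was lower in each of siEED+RNF2, siRNF2 and siWDR5, beside the shares of all genes given above. The mesoderm, trophoblast and blood lists had 0 higher in every knockdown, and the neural list had 1 higher in siEED+RNF2, siEED and siRNF2. Lower counts reached 2 for mesoderm in siRNF2 and 2 for trophoblast in siWDR5 and siSETD2. The part of these markers in the PRC2 results was not tested.

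**Figure D5:**
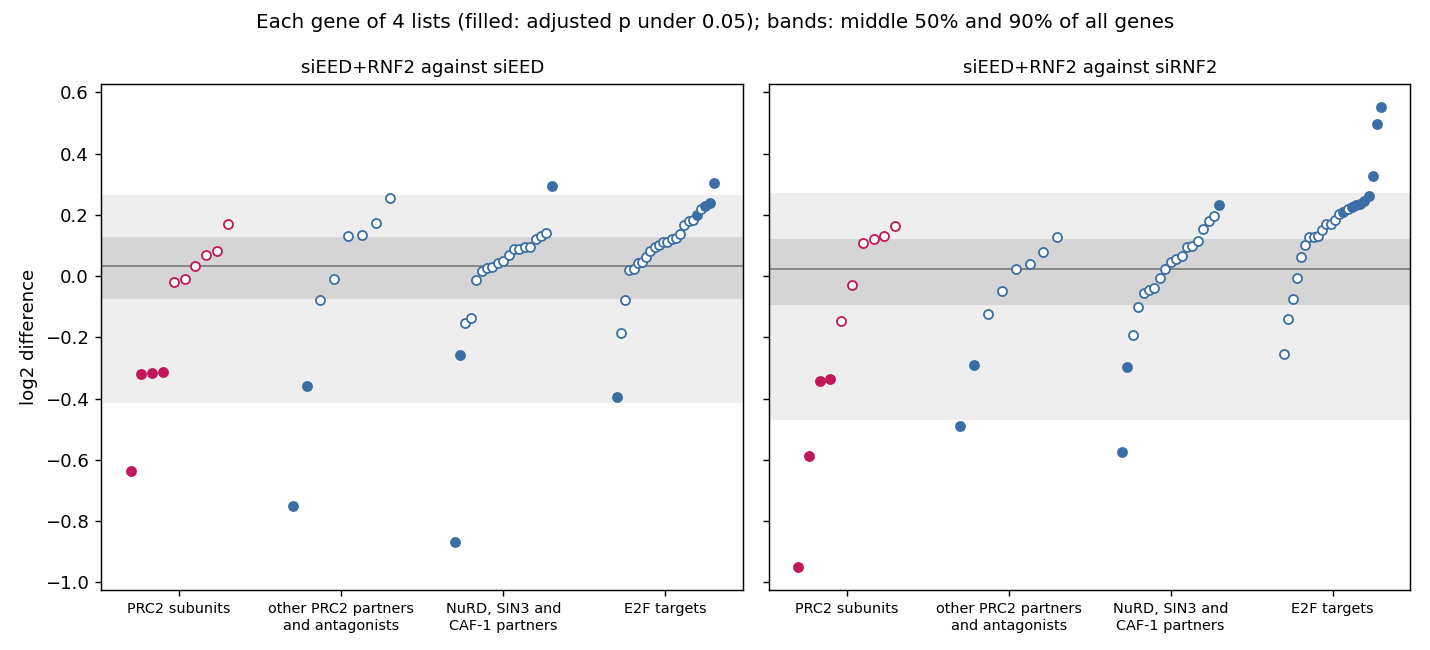
Log2 difference (vertical axis) of siEED+RNF2 from siEED (left) and from siRNF2 (right) for each measured gene of 4 lists (horizontal axis), the PRC2 subunits in red. Filled points passed an adjusted p under 0.05, the bands hold the middle 50% and 90% of all genes and the line is their median. The E2F targets lie mostly above 0, with medians of 0.11 and 0.18. The PRC2 subunits have medians of -0.01 and -0.09, and 4 of them lie at -0.31 or lower in each panel, EED, an siRNA target, among them.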

How the data were processed

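Total RNA of NCCIT cells (250 ng a sample) was hybridized to Affymetrix Human Gene ST arrays, and the log2 values deposited by the authors cover 33297 transcript clusters on 12 arrays, all of which were used. GCRMA and Partek appear in the submitters' notes on processing, without versions, so background correction and normalization between arrays preceded deposit, and the level of each array depends on them. Clusters were named through the platform annotation, updated by gene number against RefSeq (GRCh38.p14), and the brightest single-gene cluster stood for its gene. Condition means were estimated from all 12 arrays together in limma 3.58.1 (R 4.3.3), leaving 6 residual degrees of freedom, with empirical Bayes moderation and Benjamini-Hochberg adjustment over 18417 genes, and it was tested on simulated data. Members, lists, motif forms and alternatives were chosen with earlier results of these data known. Named genes were all members, the siRNA targets, up to 4 called genes of each list per comparison by size, and the 3 genes most correlated with each called member. Alternatives were other scalings, moderation, thresholds, references, cluster choices, the replicate block and leaving out each array. Figures were drawn with matplotlib in Python.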

Additional observations from a re-analysis of the deposited data

Results flagged for a closer look

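The effect of EED and RNF2 siRNA together differed from the sum of their single effects for 4 of 10 members, by a test of the interaction in the same limma fit. Of these, 2 lay below the sum and 2 above it, near the shares of all genes given below. None reached 1.5-fold as well, where 11.3% of all genes did. The interaction was -0.58 for SUZ12 (standard error 0.09, adjusted p = 0.00042), -0.33 for EZH2 (standard error 0.09, adjusted p = 0.018), 0.49 for RBBP7 (standard error 0.09, adjusted p = 0.0014) and 0.34 for EED (standard error 0.12, adjusted p = 0.043), where 16.0% of all genes had a negative and 14.5% a positive one at the same adjusted p. SUZ12 and RBBP7 kept the adjusted p in all 21 alternatives that gave a value, EZH2 in 16 of 21 and EED in 12 of 21. None of these put another reference in place of siNTC, so dependence of the interaction on the siNTC level was not tested by them. RBBP7 and EED had their highest signal in siNTC and EZH2 its lowest.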

How the results depend on the processing

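Limits come from 2 arrays per condition, from the shared siNTC arrays and from a normalization done before deposit. Without a fold threshold, the members counted against siNTC were 6 in siEED+RNF2, 3 each in siEED and siRNF2, 4 in siWDR5 and 5 in siSETD2, with 4 in siEED+RNF2 against siEED, 4 against siRNF2 and 4 in the interaction. At a fold of at least 2, 0 were called in siRNF2, 1 in siEED+RNF2 against siNTC (EED), and 0 against siEED or siRNF2. Quantile normalization gave 1 in siEED+RNF2 against siNTC and 1 in the interaction, and centred arrays gave 1 in siEED+RNF2 against siRNF2 and 1 in the interaction. With a mean of other knockdowns as the reference, leaving out any that received the same siRNA pool, 0 were called in siRNF2 and 1 in siSETD2. With the mean of siWDR5 and siSETD2, chosen after the data were seen, 0 were called in siRNF2. Leaving out 1 array at a time gave 2 in siEED+RNF2, 1 each in siEED and siRNF2, 0 to 1 in siWDR5 and 0 in siSETD2 against siNTC, 1 in siEED+RNF2 against siEED, 1 to 2 against siRNF2 and 0 to 1 in the interaction. Among the member differences past the adjusted p, signs turned under 1 alternative, the mean of other knockdowns defined above as the reference. They turned for EED in siWDR5 (0.46), siRNF2 (0.089) and siSETD2 (0.60) and for RBBP7 in siWDR5 (0.052) and siSETD2 (0.13). For EED in these conditions that mean includes cells with EED siRNA, which lowers it by construction. Any decrease that the knockdowns share also cancels against it. The replicate block left every count as it was (2 members in siEED+RNF2 against siNTC), and same-numbered arrays showed little shared deviation (15 pairs of conditions, r from -0.11 to 0.16, 1 above 0.1). The arrays were therefore not paired by number, and whether same-numbered arrays were handled together is not known.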
